A study of Homo sapiens with 12 samples.

Results

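The genes described here are 8 genes of polyamine metabolism: ODC1, AMD1, SRM, SMS, SAT1, AZIN1, OAZ1 and OAZ2. Every probe set annotated to one of these symbols alone was taken, whatever its values. This gave 15 of the 22277 probe sets on the array and 8 of its 11963 singly annotated genes. The genes themselves were chosen with earlier results of these data known. ODC1, SRM and SMS had 1 probe set each, AMD1, OAZ1 and OAZ2 had 2 each, and SAT1 and AZIN1 had 3 each. The study asked how nicotine, as an exposure of smokers, alters expression in prostate tumour cells. The cells were 22RV1 and LnCaP, 2 established lines from human prostate cancer. Each line was either left untreated or given 100 µM nicotine as the tartrate for 24 h. Each of the 4 groups of line and treatment had 3 replicates, so 12 single-colour Affymetrix arrays were available, and all values are log2 intensities. No vehicle is given for the controls, so nicotine and tartrate cannot be told apart. Each line stands for 1 tumour, so a difference between the lines is a difference between these cultures and not between classes of tumour.

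Polyamines are small positively charged molecules that bind nucleic acids and are needed for growth and translation. The prostate is known for making and secreting large amounts of spermine, and prostate cancer cells depend on continued synthesis. ODC1, ornithine decarboxylase, makes putrescine in the step that usually limits the pathway. AMD1, S-adenosylmethionine decarboxylase, provides the aminopropyl donor, with which SRM, spermidine synthase, makes spermidine and SMS, spermine synthase, makes spermine. SAT1 acetylates spermidine and spermine, which marks them for export or oxidation. OAZ1 and OAZ2 are antizymes, which bind ornithine decarboxylase, block it and pass it to the proteasome, while AZIN1, the antizyme inhibitor, resembles the enzyme and holds the antizymes away from it. Much of this control acts on translation and protein turnover, which mRNA arrays do not measure.

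Sequence near an annotated start is shown for SRM and ODC1, the genes with the 2 most negative nicotine differences in LnCaP. It is also shown for SAT1, the gene that differed most between the lines. The sequences were taken from the RefSeq promoter table (GRCh38.p14), which held 7 of the 8 genes in 10 windows. They are printed 5′ to 3′ on the gene's strand. Capitals mark CACGTG, the E-box that MYC and its partner MAX can bind, in SRM and ODC1, and CCAAT or its reverse complement ATTGG in SAT1. The SRM and SAT1 stretches are the 250 bases before the annotated start, on the minus strand at chr1:11060019-11060268 and on the plus strand at chrX:23782923-23783172. The ODC1 stretches are 30 bases each, on the minus strand at chr2:10448024-10448053 and chr2:10447990-10448019, around the E-boxes near the downstream one of its annotated starts. The first of these E-boxes lies before that start and the second after it. In the window, 250 bases precede the start and the second E-box begins at base 256.
SRM: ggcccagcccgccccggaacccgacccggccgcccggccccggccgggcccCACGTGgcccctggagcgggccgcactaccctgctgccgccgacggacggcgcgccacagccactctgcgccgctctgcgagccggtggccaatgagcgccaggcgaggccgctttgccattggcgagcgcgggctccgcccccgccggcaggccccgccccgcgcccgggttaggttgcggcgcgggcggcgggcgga
SAT1: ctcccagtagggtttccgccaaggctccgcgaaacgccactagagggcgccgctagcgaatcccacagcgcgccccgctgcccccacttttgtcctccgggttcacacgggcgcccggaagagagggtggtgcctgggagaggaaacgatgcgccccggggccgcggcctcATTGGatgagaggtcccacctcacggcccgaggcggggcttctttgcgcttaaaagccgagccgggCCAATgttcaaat
ODC1, first E-box: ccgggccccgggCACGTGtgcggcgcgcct
ODC1, second E-box: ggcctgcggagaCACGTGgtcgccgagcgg
CACGTG, which reads alike on both strands, was present in 2 of the 10 windows of 250 bases before a start, those of SRM and ODC1, against 6.34% of 35116 such windows in the table. The SRM match began 199 bases before the start. CCAAT on either strand was found in 5 of the 10 windows, those of AMD1, SRM, SMS, SAT1 and OAZ1, against 32% of all windows. In SAT1 the matches began 79 and 13 bases before the start. A match describes the letters only, and no binding was measured in these samples.

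The 12 arrays had like medians and correlated closely within groups, and no measure of RNA or hybridisation quality was used. Array medians lay between 6.61 and 6.71, the lowest correlation within a group was 0.992 and the highest between lines was 0.933. The arrays numbered 3 carried 47.2% of the variation within groups, so values without them are given where they matter. Of the markers of luminal prostate cells, 9 of 10 were measured, and all 9 had means between the 82.3rd and 98.9th percentile of all probe sets. The fibroblast markers (5 measured) lay between the 26.2nd and 59.7th percentile, the leukocyte markers (4 measured) between the 3.33rd and 30.9th, and the 2 basal markers measured at the 11.5th and 24th. Nothing in the labels says that replicates were separate cultures, so the p-values rest on a spread among arrays that could be technical.

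No polyamine probe set passed the test for nicotine in either line, whereas most were higher in LnCaP than in 22RV1. In limma fits over all 22277 probe sets with Benjamini-Hochberg adjustment, called at an adjusted p under 0.05, 0 of 15 polyamine probe sets were called for nicotine in 22RV1, where 0% of all probe sets were called. At an unadjusted p under 0.05, 3 of the 15 passed, all of them of SAT1, against 5.15% of all probe sets. By the highest-mean probe set of each gene this was 1 of 8. In LnCaP 0 of 15 were called, where 0.471% of all were, and 2 passed at an unadjusted p under 0.05 (SRM and 1 OAZ2 probe set) against 10.6% of all. That background of 105 probe sets rested on few arrays: it was 2 and 11 without untreated LnCaP replicate 1 or 3, 4 and 1 without treated LnCaP replicate 1 or 2, and between 49 and 134 without any other single array. With the replicate number as a block, 3.8% of all probe sets were called in LnCaP and SRM was the 1 polyamine probe set among them. The labels state no pairing, and the block was taken from these same values. Averaged over both lines, 0 of 15 were called beside 0.211% of all, or 47 probe sets, which became 0 to 23 when single arrays were left out, and 2 passed at an unadjusted p under 0.05 (SRM and 1 OAZ2 probe set) against 10.2%. For the difference between the lines in the nicotine effect, 0 of 15 were called beside 0% of all. The 3 SAT1 probe sets passed at an unadjusted p under 0.05 against 6.08% of all, again as 1 of 8 genes. The median nicotine difference over the 15 probe sets was -0.07 in 22RV1 and 0.06 in LnCaP, and that over all probe sets was -0.0023 and 0.0034.

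**Figure D1:**
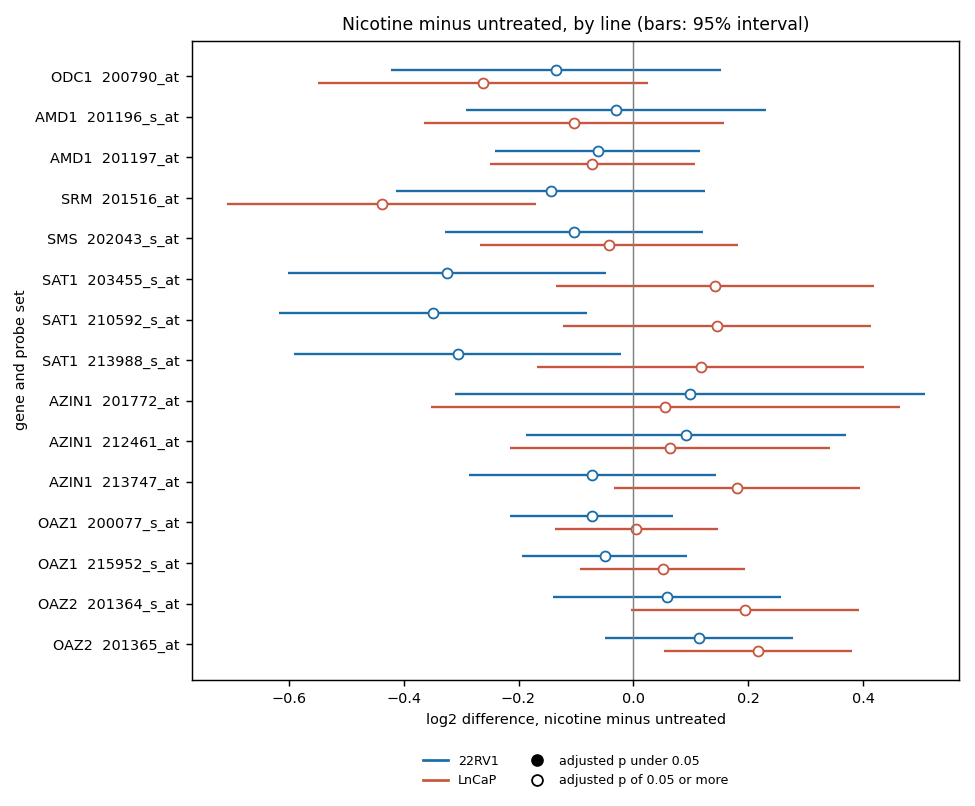
Difference between nicotine-treated and untreated arrays on the log2 scale (x axis) for each of the 15 polyamine probe sets (y axis) in 22RV1 and LnCaP, with the 95% interval from limma; a filled mark would be one with an adjusted p under 0.05. No mark is filled, and the intervals of SRM in LnCaP (-0.71 to -0.17), of 1 OAZ2 probe set in LnCaP (0.05 to 0.38) and of the 3 SAT1 probe sets in 22RV1 lie off 0.

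Between untreated cultures, 10 of 15 probe sets were called higher in LnCaP and 0 lower, beside 22.8% of all probe sets called higher and 20.9% called lower. The 10 covered 6 genes, ODC1, SRM, SMS, SAT1, OAZ1 and OAZ2, each with all its probe sets, whereas no probe set of AMD1 or AZIN1 passed. In the same 10 probe sets every untreated LnCaP array lay above every untreated 22RV1 array, which held for 28.3% of all probe sets; 0 of the 15 lay wholly lower, against 24% of all. Between nicotine-treated cultures, which share no array with the untreated ones, 9 of 15 were called higher and 0 lower, beside 23.8% of all called higher and 22.4% called lower. In 11 of 15 the treated LnCaP arrays lay wholly above the treated 22RV1 arrays and in 0 wholly below, against 29.9% and 25.9% of all. The polyamine probe sets lay between the 79.9th and 99.3rd percentile of mean signal, apart from AZIN1 213747_at at the 47.4th. The shares over all probe sets are not matched for signal, and several of the 15 measure 1 gene. In bulk RNA, a difference in the share of cells that express a gene and one in RNA per cell cannot be told apart.

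**Figure D2:**
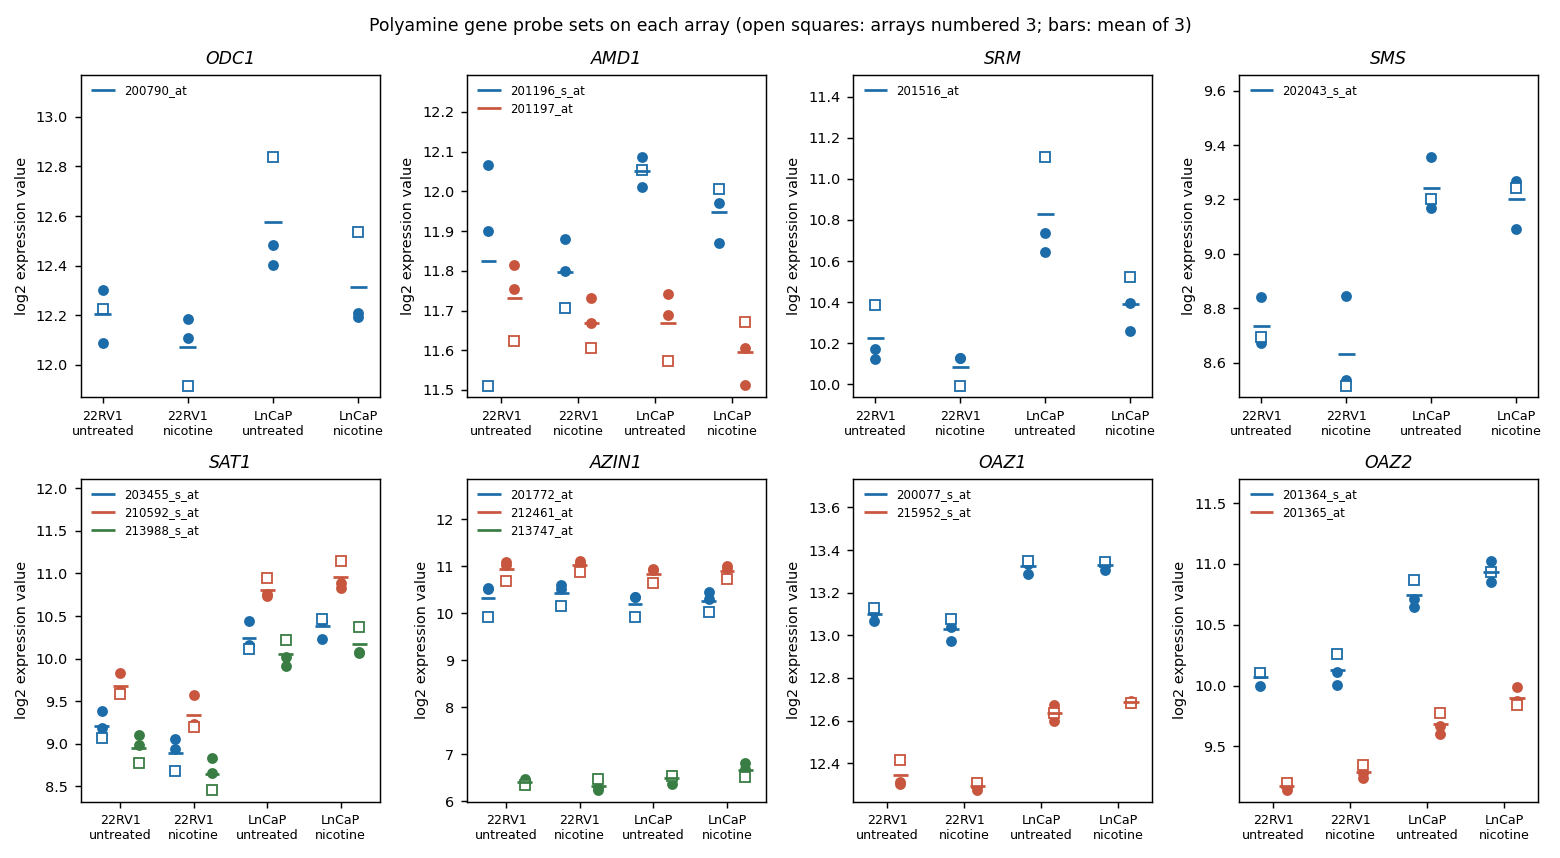
Log2 value (y axis) of the 15 polyamine probe sets on the 12 arrays, in 1 panel per gene and by group of line and treatment (x axis), with colours for probe sets, bars for the mean of 3 arrays and open squares for the arrays numbered 3. LnCaP arrays lie above 22RV1 arrays for SAT1, SMS, OAZ1 and OAZ2 with either treatment, and the AMD1 and AZIN1 panels show the lines overlapping in most probe sets.

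Of the enzymes of synthesis, ODC1 was higher in untreated LnCaP than in untreated 22RV1, and this call depended on single arrays. ODC1 (200790_at) read 12.30, 12.09 and 12.23 in untreated 22RV1 and 12.18, 12.11 and 11.91 with nicotine. It read 12.48, 12.40 and 12.84 in untreated LnCaP and 12.21, 12.19 and 12.54 with nicotine. LnCaP lay wholly above 22RV1 within each treatment, by a narrow margin with nicotine, and the groups with and without nicotine overlapped in each line. Untreated LnCaP exceeded untreated 22RV1 by 0.37 ± 0.13 (SE, n = 3 per group), a 1.29-fold difference with an adjusted p of 0.0381. That call was lost without the arrays numbered 3 (0.25, adjusted p = 0.0704), without untreated 22RV1 replicate 2 (0.31, adjusted p = 0.131) or 3 (0.38, adjusted p = 0.0665), and without untreated LnCaP replicate 3 (0.24, adjusted p = 0.163). A fit on the arrays of these groups alone also lost it (adjusted p = 0.0516). With nicotine, the lines differed by 0.24 ± 0.13 (adjusted p = 0.156), and by 0.05 without the arrays numbered 3. The nicotine difference was -0.26 ± 0.13 in LnCaP (95% interval -0.55 to 0.03, adjusted p = 0.539) and -0.14 ± 0.13 in 22RV1 (-0.42 to 0.15, adjusted p = 0.999). In LnCaP each treated array was below the untreated array of its number, by -0.27, -0.21 and -0.30. Leaving out single arrays moved the LnCaP difference between -0.37 and -0.13, the latter without untreated LnCaP replicate 3. From low to high, the mean levels ran 22RV1 with nicotine, untreated 22RV1, LnCaP with nicotine and untreated LnCaP, and each neighbouring pair of groups overlapped.

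SRM followed the same order of mean levels and gave the most negative nicotine difference of the polyamine probe sets. SRM (201516_at) read 10.12, 10.17 and 10.39 in untreated 22RV1 and 10.13, 10.13 and 9.99 with nicotine. It read 10.74, 10.64 and 11.11 in untreated LnCaP and 10.26, 10.40 and 10.52 with nicotine. The untreated LnCaP arrays lay above all 9 others, and the remaining neighbours in the order of levels overlapped. With nicotine in LnCaP the difference was -0.44 ± 0.12 (95% interval -0.71 to -0.17, n = 3 per group, unadjusted p = 0.00404), a 1.36-fold lower level, and missed the threshold in limma (adjusted p = 0.156). With the replicate number as a block its adjusted p was 0.0465, in a fit whose pairing the labels do not state. The value was lower with nicotine in 3 of 3 pairs, by -0.48, -0.25 and -0.59. Leaving out single arrays moved the difference between -0.53 and -0.30, with adjusted p between 0.108 and 0.421. The smallest of these in size came without untreated LnCaP replicate 3, the array with the highest SRM value. In 22RV1 the SRM difference was -0.14 ± 0.12 (-0.41 to 0.13), of which pair 3 gave -0.40 and pairs 1 and 2 gave 0.00 and -0.04. The difference between the lines in the SRM effect, -0.29 ± 0.17, was not called (adjusted p = 0.889), and the average over both lines was -0.29 ± 0.09 (adjusted p = 0.242).

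Genes of dividing cells had the sign of SRM for nicotine in LnCaP and the other sign between the untreated lines. Of MKI67, CCNA2, TOP2A, TYMS and MCM7, all 5 had negative nicotine differences there, from -0.75 to -0.48. MKI67, CCNA2 and TYMS were called (adjusted p = 0.0342, 0.0289 and 0.0322), beside 0.471% of all probe sets. The LnCaP calls as a whole rested on few arrays, and no fit without single arrays is given for these genes. In 22RV1 the same 5 were negative with a median of -0.16, and 0 were called, beside 0% of all. Between the untreated lines all 5 were lower in LnCaP, from -1.55 (MCM7) to -0.34 (TYMS), while SRM was 0.60 and ODC1 0.37 higher. The part of these 5 genes in the SRM and ODC1 values was not tested. After each line's mean was subtracted, ODC1 and SRM correlated at r = 0.853 over the 12 arrays, which share their RNA and hybridisation for both genes, so this is a description.

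Between the lines without treatment, SRM was 1.52-fold higher in LnCaP (0.60 ± 0.12, adjusted p = 0.00159). With nicotine it was 0.31 ± 0.12 higher and missed the threshold (adjusted p = 0.0594). It passed with the replicate number as a block shared by both lines, a sharing the labels do not state (adjusted p = 0.0341). It also passed with array median centring (adjusted p = 0.0291), a mean log2 of at least 6 (0.0475), array weights (0.0473) and only the arrays compared (0.0321). With quantile normalization and with 1 probe set per gene it stayed uncalled. It passed without untreated LnCaP replicate 2 or 3 (adjusted p = 0.0498 and 0.0219) and without treated LnCaP replicate 1 (adjusted p = 0.0470). Over all single arrays left out, its adjusted p ran from 0.0219 to 0.188, and without the arrays numbered 3 the difference was 0.20 (adjusted p = 0.104). SMS (202043_s_at) read 8.84, 8.67 and 8.70 in untreated 22RV1 and 8.85, 8.54 and 8.52 with nicotine. It read 9.17, 9.36 and 9.20 in untreated LnCaP and 9.27, 9.09 and 9.24 with nicotine. All 6 LnCaP arrays thus lay above all 6 22RV1 arrays, and within a line the treatment groups overlapped. SMS was 1.42-fold higher in untreated LnCaP (0.51 ± 0.10, adjusted p = 0.00148) and 0.57 ± 0.10 higher with nicotine (adjusted p = 5.90e-04). Its nicotine differences were -0.10 ± 0.10 in 22RV1 (95% interval -0.33 to 0.12) and -0.04 in LnCaP.

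AMD1 did not separate the lines. Its probe set 201196_s_at had group means of 11.83 ± 0.29 (SD, n = 3) in untreated 22RV1, 11.80 ± 0.09 in treated 22RV1, 12.05 ± 0.04 in untreated LnCaP and 11.95 ± 0.07 in treated LnCaP. The wide spread in untreated 22RV1 came from arrays at 12.07, 11.90 and 11.51. Its line difference without treatment, 0.23 ± 0.12, was not called (adjusted p = 0.157); without untreated 22RV1 replicate 1 it was 0.35 with an adjusted p of 0.0316. The other AMD1 probe set, 201197_at, had means of 11.73 ± 0.10, 11.67 ± 0.06, 11.67 ± 0.09 and 11.60 ± 0.08 in the same order, and a line difference of -0.06 (adjusted p = 0.589). With nicotine, the line differences were 0.15 and -0.07 for the 2 probe sets, neither called. Nicotine differences of the 2 AMD1 probe sets were -0.03 and -0.06 in 22RV1 and -0.10 and -0.07 in LnCaP, none of them called.

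SAT1, the catabolic acetyltransferase, differed most between the lines of the 8 genes, and all 3 of its probe sets were higher in LnCaP. The probe set 210592_s_at read 9.62, 9.83 and 9.59 in untreated 22RV1 and 9.23, 9.57 and 9.20 with nicotine. It read 10.73, 10.76 and 10.95 in untreated LnCaP and 10.83, 10.89 and 11.15 with nicotine. Every LnCaP array lay above every 22RV1 array in each of the 3 probe sets. Without treatment SAT1 was 2.04-fold (203455_s_at, adjusted p = 3.12e-05), 2.19-fold (210592_s_at, adjusted p = 1.05e-05) and 2.14-fold (213988_s_at, adjusted p = 2.20e-05) higher in LnCaP. On the log2 scale these differences were 1.03 ± 0.13, 1.13 ± 0.12 and 1.10 ± 0.13. With nicotine they were 1.49 ± 0.13, 1.63 ± 0.12 and 1.52 ± 0.13, or 2.82-fold, 3.09-fold and 2.87-fold (adjusted p = 1.14e-06, 4.26e-07 and 1.22e-06).

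**Figure D3:**
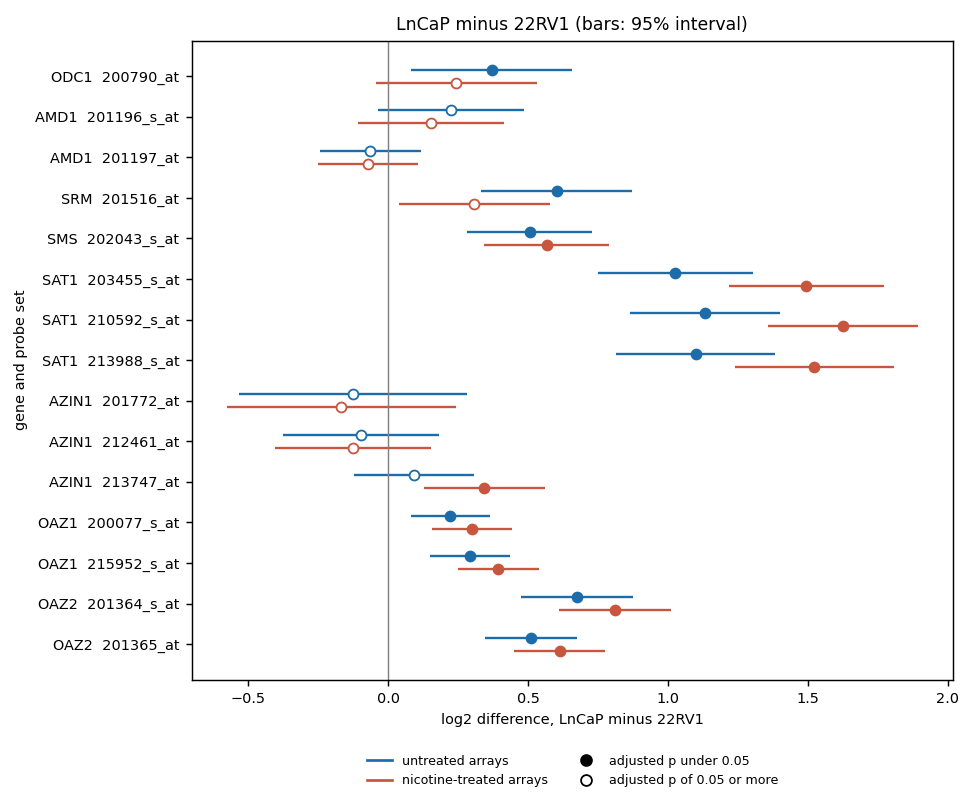
Difference between LnCaP and 22RV1 on the log2 scale (x axis) for each of the 15 polyamine probe sets (y axis), untreated and with nicotine, with the 95% interval from limma and filled marks for an adjusted p under 0.05. The 3 SAT1 probe sets lie between 1.03 and 1.63, those of OAZ2 between 0.51 and 0.81, and those of AMD1 and most of AZIN1 near 0.

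Within each line, SAT1 had opposite signs with nicotine, in values that did not pass the test. In 22RV1 the differences were -0.32 ± 0.13 (203455_s_at), -0.35 ± 0.12 (210592_s_at) and -0.31 ± 0.13 (213988_s_at), with unadjusted p of 0.0251, 0.0150 and 0.0370 and adjusted p in limma of 0.916, 0.882 and 0.958. In each of these 3 probe sets, all 3 same-number pairs of 22RV1 arrays were lower with nicotine, from -0.39 to -0.25. The probe sets share these 3 pairs of arrays. The treated and untreated 22RV1 groups did not overlap in the first 2 probe sets and overlapped in 213988_s_at. Leaving out single arrays moved 210592_s_at between -0.47 and -0.27 and called it in none of the fits.

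In LnCaP the SAT1 differences were 0.14, 0.15 and 0.12 (adjusted p = 0.816, 0.801 and 0.876), and treated and untreated groups overlapped in each probe set. Pair 2 of 203455_s_at was -0.21. The other LnCaP values of the 3 probe sets, from the same 3 pairs of arrays, were positive, from 0.06 to 0.35. The line difference in the nicotine effect was 0.47 ± 0.18, 0.49 ± 0.17 and 0.42 ± 0.18, with unadjusted p of 0.0231, 0.0149 and 0.0406, and none was called (adjusted p = 0.732, 0.685 and 0.803; with the replicate number as a block, 0.269, 0.0975 and 0.126). These 3 probe sets measure transcripts of 1 gene on the same arrays and are not separate evidence. From low to high, SAT1 ran 22RV1 with nicotine, untreated 22RV1, untreated LnCaP and LnCaP with nicotine.

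**Figure D4:**
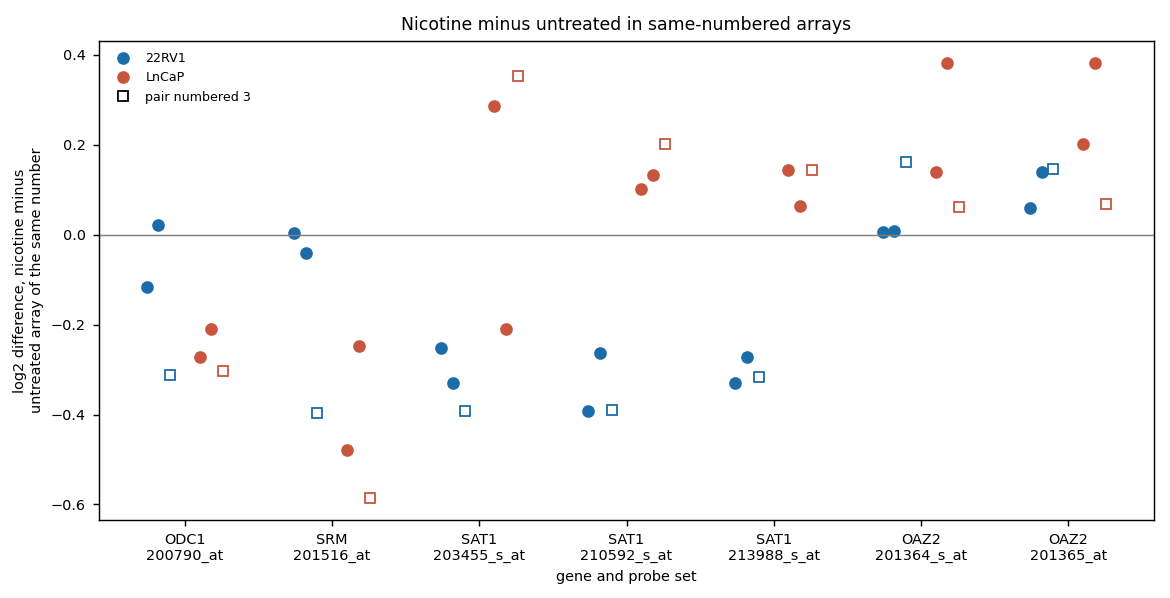
Nicotine-treated minus untreated array of the same replicate number, on the log2 scale (y axis), for the probe sets of ODC1, SRM, SAT1 and OAZ2 in each line (x axis), with open squares for pair 3. All 3 LnCaP pairs of ODC1 and SRM lie below 0, all 22RV1 pairs of SAT1 lie below 0, and all OAZ2 pairs lie above 0.

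The antizyme transcripts OAZ1 and OAZ2 were higher in LnCaP with and without nicotine. OAZ1 (200077_s_at) read 13.07, 13.11 and 13.13 in untreated 22RV1 and 12.97, 13.04 and 13.07 with nicotine. It read 13.29, 13.34 and 13.35 in untreated LnCaP and 13.34, 13.30 and 13.35 with nicotine, so that the lines did not overlap although their means lay close. The line difference was 0.22 ± 0.07 or 1.17-fold without treatment (adjusted p = 0.0145) and 0.30 with nicotine (adjusted p = 0.00220). The first of these calls was lost without the arrays numbered 3 (0.22, adjusted p = 0.0549) and in a fit on the arrays of the untreated groups alone (adjusted p = 0.0531). The other OAZ1 probe set, 215952_s_at, was 0.29 ± 0.07 or 1.22-fold higher without treatment (adjusted p = 0.00302) and 0.39 higher with nicotine (adjusted p = 3.25e-04). Nicotine differences of OAZ1 were -0.07 and -0.05 in 22RV1 and 0.00 and 0.05 in LnCaP. In 215952_s_at the treated LnCaP arrays (12.68, 12.69 and 12.68) lay just above the untreated ones (12.60, 12.67 and 12.63).

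OAZ2 gave the most positive nicotine differences in LnCaP. Its probe set 201365_at read 9.18, 9.14 and 9.20 in untreated 22RV1 and 9.24, 9.28 and 9.35 with nicotine. It read 9.67, 9.61 and 9.78 in untreated LnCaP and 9.87, 9.99 and 9.84 with nicotine. None of the 4 groups overlapped another, in the order untreated 22RV1, 22RV1 with nicotine, untreated LnCaP and LnCaP with nicotine. The nicotine difference in this probe set was 0.22 ± 0.07 in LnCaP (95% interval 0.05 to 0.38, unadjusted p = 0.0136, adjusted p = 0.273) and 0.11 ± 0.07 in 22RV1 (unadjusted p = 0.152), and all 6 pairs were higher with nicotine. The other probe set, 201364_s_at, had a difference of 0.19 ± 0.09 in LnCaP (adjusted p = 0.488) and 0.06 in 22RV1, with treatment groups that overlapped in both lines. Averaged over both lines, 201365_at was 0.17 ± 0.05 higher with nicotine and not called (adjusted p = 0.275).

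Non-overlap of this kind was not rare on these arrays: with nicotine, 6.81% of all probe sets lay wholly higher and 8.49% wholly lower in LnCaP, and 5.49% and 5.84% in 22RV1. Among the 15 polyamine probe sets, 2 lay wholly higher (OAZ1 215952_s_at and OAZ2 201365_at) and 2 wholly lower (SRM and AMD1 201196_s_at) in LnCaP. In 22RV1, 1 lay wholly higher (OAZ2 201365_at) and 2 wholly lower (SAT1 203455_s_at and 210592_s_at). Between the lines without treatment, OAZ2 was 1.60-fold higher in LnCaP in 201364_s_at (adjusted p = 6.49e-05) and 0.51 ± 0.07 higher on the log2 scale in 201365_at (adjusted p = 1.26e-04). With nicotine, OAZ2 was 0.81 and 0.61 higher (adjusted p = 1.27e-05 and 2.52e-05).

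AZIN1, the antizyme inhibitor, varied more with the replicate number than with line or treatment in its 2 brighter probe sets. The probe set 212461_at read 11.09, 11.03 and 10.69 in untreated 22RV1 and 11.08, 11.12 and 10.88 with nicotine. It read 10.95, 10.92 and 10.65 in untreated LnCaP and 11.01, 10.97 and 10.74 with nicotine. The array numbered 3 was the lowest of its group in all 4 groups, by 0.21 to 0.38 against the mean of the other two. In 201772_at it was also the lowest in all 4 groups, by 0.35 to 0.60. This pattern was seen in 2 of the 15 polyamine probe sets and in 8.26% of all probe sets. Line differences in these probe sets were -0.13 and -0.10 without treatment and -0.17 and -0.12 with nicotine, none called, and all neighbouring groups overlapped.

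The third AZIN1 probe set, 213747_at, had lower signal, with group means of 6.40 ± 0.07, 6.33 ± 0.12, 6.49 ± 0.11 and 6.67 ± 0.15 (SD, n = 3) for untreated and treated 22RV1 and untreated and treated LnCaP. It was called higher in LnCaP with nicotine (0.34 ± 0.10, adjusted p = 0.0121) but not without (0.09, adjusted p = 0.497), and so disagreed with the other AZIN1 probe sets. The call was lost without treated 22RV1 replicate 2 (adjusted p = 0.0522) or treated LnCaP replicate 2 (adjusted p = 0.0568). AZIN1 nicotine differences were 0.10, 0.09 and -0.07 in 22RV1 and 0.06, 0.06 and 0.18 in LnCaP, none called.

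Further genes of the pathway were read from 6 lists: polyamine oxidation and paralogues, ornithine and arginine metabolism, methionine metabolism and salvage, hypusination, transport, and the MYC network. The lists held 58 symbols, of which 51 were measured, each by the probe set with the highest mean. For nicotine, limma called 0 of 51 in 22RV1 and 0 of 51 in LnCaP, beside 0% and 0.471% of all probe sets. At an unadjusted p under 0.05, 3 and 5 passed, against 5.15% and 10.6% of all. Limma also called 0 of 51 in the average over both lines and in the difference between them, beside 0.211% and 0% of all. Here 5 and 2 had an unadjusted p under 0.05, against 10.2% and 6.08% of all. In LnCaP, OAZ3, an antizyme paralogue, was -0.55 ± 0.16 (adjusted p = 0.181) and GNMT, a glycine methyltransferase that consumes S-adenosylmethionine, was -0.88 ± 0.35 (adjusted p = 0.369). With the replicate number as a block, a pairing the labels do not state, both were called (adjusted p = 0.0287 and 0.0139), where 3.8% of all probe sets were. GNMT was called also in the average over both lines (-0.62, adjusted p = 0.418 without and 0.0217 with the block). There the block called 2.01% of all probe sets and 0 of the 15 polyamine probe sets. OAZ3 read 8.27, 8.39 and 8.95 in untreated LnCaP and 7.95, 7.92 and 8.08 with nicotine, without overlap. GNMT read 7.32, 7.30 and 8.38 in untreated LnCaP and 6.34, 6.61 and 7.40 with nicotine, so that the groups overlapped while each pair of one number was lower.

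The remaining genes with the smallest p of their lists in LnCaP were uncalled. SMOX, spermine oxidase, was at 0.07, the nitric oxide synthase NOS1 at -0.24, ASS1, which makes argininosuccinate, at 0.18 and MTAP of methionine salvage at -0.25. The hypusination enzyme DOHH was at -0.23 and its substrate EIF5A at -0.12, the transporters SLC7A2 and ATP13A3 at -0.31 and -0.12, and MLX and MXI1 of the MYC network at -0.16 and 0.19. In 22RV1 the corresponding differences were -0.23 for PAOX and -0.12 for OAZ3, -0.24 for ARG1, which had low signal, and -0.33 for AGMAT. For ENOPH1 and MTR they were -0.16 and -0.20. The 22RV1 differences were 0.13 for EIF5A2 and -0.11 for EIF5A, 0.35 for SLC7A2 and 0.10 for GPC1, and -0.22 for MXD3 and 0.15 for MAX. MYC, looked up after the other values were seen, was at -0.04 in LnCaP and 0.03 in 22RV1.

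Between the lines, 25 of 51 genes were called without treatment, 11 higher and 14 lower in LnCaP, beside 43.7% of all probe sets. With the replicate number as a block, 33 of 51 were called, 15 higher and 18 lower, beside 48.1% of all. That fit takes the numbers as shared by both lines, which the labels do not state. The genes ran in both directions, with a median difference of -0.03 against 0.04 over all probe sets. The calls gained with the block were GATM (adjusted p = 0.0170), NOS2 (0.0424), MAT2A (0.0283), GNMT (0.0481), DHPS (0.0159), SLC3A2 (0.0109), MYC (0.0210) and MXI1 (0.00365), with differences between -0.33 for MXI1 and 0.41 for GNMT. Ornithine and arginine genes gave the widest differences, with 6 of 11 called. ASS1 was 3.84 ± 0.14 higher in LnCaP (adjusted p = 5.71e-10) and ARG2, the mitochondrial arginase that yields ornithine, 2.13 higher (adjusted p = 0.00107). The endothelial nitric oxide synthase NOS3 was at -4.36 ± 0.24 (adjusted p = 2.52e-08) and OAT, which converts ornithine onward, at -2.40 (adjusted p = 1.89e-06). AGMAT, agmatinase, was at -1.51 (adjusted p = 5.52e-07) and ASL at -0.62 (adjusted p = 0.0434). Signal was low for AGMAT in LnCaP (3.85 to 4.05) and for GATM in both lines (3.93 to 4.65), near the basal marker KRT14 (3.60 to 4.44).

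Of the oxidation genes and paralogues 2 of 3 were higher in untreated LnCaP, SMOX by 0.43 (adjusted p = 0.00663) and OAZ3 by 0.61 (adjusted p = 0.00868). Of the methionine genes 8 of 14 were called, 2 higher and 6 lower, including MAT2B, a regulatory subunit of S-adenosylmethionine synthetase, at -0.80, and ADI1 and APIP of methionine salvage at -0.62 and -0.56. AHCY, which removes S-adenosylhomocysteine, was 0.33 higher, and MAT1A and MTRR were at -0.49 and -0.32. EIF5A2, the paralogue of the hypusinated factor EIF5A, was 0.77 higher and EIF5A was at -0.71. Of the transporters 4 of 10 were called, with SLC7A5, a carrier of large neutral amino acids, at -2.53 (adjusted p = 2.48e-07), ATP13A2, a lysosomal polyamine exporter, at -0.67, and GPC1 and SLC12A8 at 0.52 and 0.55. Of the MYC network 3 of 9 were called, MXD3 at -0.88, MLX at 0.46 and MYCL at 0.30. With nicotine, 26 of 51 were called, 10 higher and 16 lower, beside 46.2% of all. With the replicate number as a block, again taken as shared by both lines, 32 of 51 were called, 13 higher and 19 lower, beside 50.6% of all. The calls gained were PAOX (adjusted p = 0.0195), ARG1 (0.0438), ASL (0.0301), DHPS (0.0124), SLC3A2 (0.0406) and MYC (0.00674), with differences between -0.46 for ASL and 0.26 for SLC3A2. Of the ornithine and arginine genes, ASS1 was at 3.79, ARG2 at 1.98, GATM at 0.41, NOS3 at -4.14, OAT at -2.63 and AGMAT at -1.18. Of the methionine genes, ENOPH1 was at 0.36, MAT2B at -0.89, ADI1 at -0.81, MAT2A at -0.46, APIP at -0.41 and GOT1 at -0.40. Of the transporters, SLC12A8 was at 0.71, GPC1 at 0.51, SLC7A5 at -2.41, SLC7A2 at -1.09, ATP13A2 at -0.63 and ATP13A3 at -0.39. SMOX was at 0.51, EIF5A2 at 0.66, EIF5A at -0.71, MLX at 0.28 and MXD3 at -0.80.

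**Figure D5:**
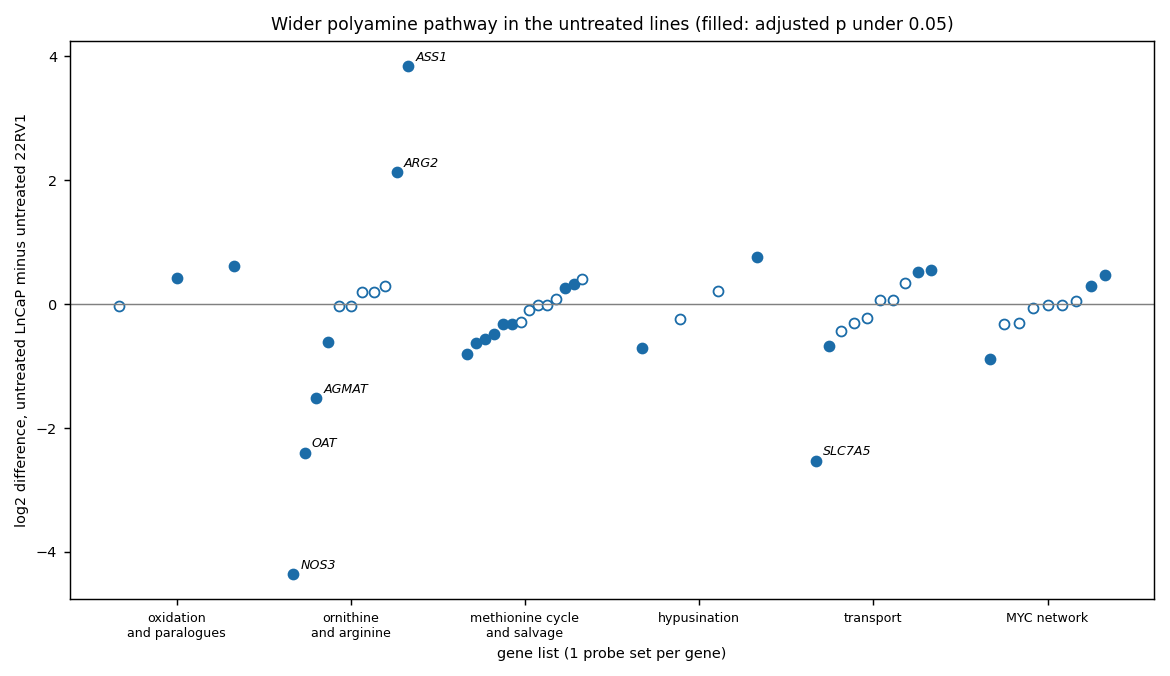
Difference between untreated LnCaP and untreated 22RV1 on the log2 scale for each measured gene of the 6 lists, by list; filled marks have an adjusted p under 0.05 in limma and genes beyond 1 in size are labelled. ASS1 (3.84) and ARG2 (2.13) lie far above 0, NOS3 (-4.36), SLC7A5 (-2.53), OAT (-2.40) and AGMAT (-1.51) far below.

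The genes most like ODC1 and SAT1 across the 12 arrays were ranked by Pearson's r after each line's mean was subtracted, over 11962 other genes. For ODC1 they were TIMM10B (r = 0.957), PCSK7 (0.938) and PSMD12 (0.935). For SAT1 they were GREB1 (0.869), NUDT18 (0.851) and TLX3 (0.849). All genes share the same arrays, replicate numbers included, so these values describe likeness only.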

How the data were processed

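RNA from 12 samples of 22RV1 and LnCaP was labelled as biotinylated cRNA and hybridised to single-colour Affymetrix arrays, per the labels' protocols. The values used here are the log2 intensities of 22277 probe sets deposited by the authors; how these were summarized and normalized is not given in the sources used here. No value was missing, and the values were used without further scaling. Genes were named from the platform annotation, in which 19070 probe sets had 1 symbol, 1043 had several and 2164 were unlisted. A further probe set lists one of the 8 genes beside another symbol and was left out.

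For 6 contrasts, a group-means model without covariates was fitted to the whole set of 12 arrays (lmFit and two-sided tests by eBayes; limma 3.58.1, R 4.3.3). P-values were adjusted over all probe sets by the Benjamini-Hochberg method, with calls at an adjusted p under 0.05. The fit was tested on simulated data. Same-numbered treated and untreated arrays deviated together (r from 0.179 to 0.626 over 6 pairs), most clearly those numbered 3 (0.626 in 22RV1, 0.554 in LnCaP). In 22RV1 pairs 1 and 2 had 0.445 and 0.424, against 0.199 and 0.249 between numbers 1 and 2. In LnCaP untreated replicate 2 was closer to treated replicate 1 (0.257) than to treated replicate 2 (0.179). The labels state no pairing. On these values, which the fit then tests, the numbers were taken as pairs and used as a block in a further fit. In LnCaP pair 2 did not stand out, so calls gained there with the block rest on an uncertain pairing. The block fit (within a line for nicotine, over both lines for line differences) is given where it changes a call. For line differences it assumes that a number means the same in both lines, which the labels do not state. The r values above are within a line. For SAT1 210592_s_at, arrays numbered 3 lay -0.14 and -0.20 from the mean of the others in 22RV1, and 0.20 and 0.29 in LnCaP. Over all probe sets, array 3 was the lowest of its group in all 4 groups in 8.26% and the highest in 7.47%. Other alternatives were array median centring, quantile normalization, a mean log2 of at least 6, 1 probe set per gene, array weights, only the arrays compared, no arrays numbered 3, and each array left out in turn. The number of arrays limits the precision.

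All probe sets of the 8 genes are named. In each wider list, called genes are named up to 6 a contrast by p, and otherwise the 2 with the smallest p; the average and the line difference of the nicotine effect are given as counts, apart from GNMT. The 3 genes most like ODC1 and SAT1 are named. The genes and lists were chosen with earlier results of these data known.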

Additional observations from a re-analysis of the deposited data

How the results depend on the processing

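With the replicate number as a block, a pairing taken from these values, 1 polyamine probe set (SRM) was called for nicotine in LnCaP instead of 0. Of the 51 wider genes, the block called 2 in LnCaP and 1 in the average over both lines instead of 0, beside 3.8% and 2.01% of all probe sets. It changed no other nicotine call among these genes, and among the polyamine probe sets it added SRM between the treated lines (10 calls instead of 9). Without the arrays numbered 3, 1 wider gene (GNMT) was called in LnCaP. With 1 probe set per gene, 6 of the 8 genes were called higher in untreated LnCaP and 4 in treated LnCaP, against 10 and 9 of 15 probe sets, because fewer probe sets were counted. When each array was left out in turn, polyamine calls ranged from 9 to 11 between untreated lines and from 8 to 10 between treated lines, wider calls from 21 to 27 in both, and nicotine calls stayed at 0. Of 1728 recomputed differences of the polyamine probe sets, 47 had another sign, all uncalled and none over 0.13 in size with all 12 arrays; a call was lost in 9 and gained in 10. Causes were not tested. The number of arrays, 3 per group, limits the precision, and the normalization is unknown.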
